A study of Mus musculus with 6 samples.

Results

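The regions described here are all those that the deposited list places on mouse chromosome 2, chosen by their chromosome alone and at every width. They number 494 of the 9010 listed regions, or 5.48%, and 5.55% of the 8898 on the 19 autosomes. The list comes from ChIRP, a method in which biotinylated DNA probes pull a chosen RNA out of cross-linked chromatin so that the DNA held near it can be sequenced. The chosen RNA was Meg3, a long noncoding RNA. It was captured from MIN6-4N cells, an insulinoma line from mouse that goes back to pancreatic beta cells. One stable clone carried the pcDNA3.1 plasmid without an insert (V3) and the other carried the plasmid with Meg3 (M5). Both were selected in G418 at 750 µg/ml, expanded at 500 µg/ml and fixed with 1% glutaraldehyde. Each clone gave an input, an odd-probe and an even-probe library, 6 libraries in all with 1 in each group, and each genotype is 1 picked clone. The single list is named for the M5 clone, so that replicate error cannot be given for any value and no test between clones or probe pools could be made.

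Meg3 is transcribed from the maternal copy of an imprinted domain on chromosome 12, and it acts in the nucleus, where long noncoding RNAs of this kind can bring chromatin-modifying complexes to genes elsewhere. Chromosome 2 is of interest in beta cells for the genes it carries. Neurod1, Pax6, Nkx2-2 and Foxa2 encode transcription factors that build and maintain endocrine islet cells, and Pcsk2 encodes a convertase that cuts prohormones in secretory granules. Near the far end lies the imprinted Gnas domain, which encodes the stimulatory G protein alpha subunit and several transcripts expressed from a single parental copy.

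The list gives the regions' positions on mm9, and no mm9 sequence or gene annotation was used here, so no region is assigned to a gene and no region sequence is shown. A RefSeq table of another build (GRCm38.p6) was used for names and for the order of genes only. The 22 islet and imprinted genes named here, not the whole of the planned list, were found in it on chromosome 2 by symbol or by synonym. Counted from the start of the chromosome, the order opened with imprinted Sfmbt2 and with Ptf1a, a factor of early pancreas. Dpp4, whose product degrades incretin hormones, Gcg, which encodes proglucagon, G6pc2, the islet glucose-6-phosphatase subunit, and Rapgef4, a cAMP sensor in secretion, came next. Neurod1 was the seventh gene and Pax6 the eighth. The granule genes Scg5, Chgb, Snap25 and Pcsk2 followed, and then the factors Insm1, Nkx2-2 and Foxa2 stood next to each other in the order. The remaining genes were the imprinted H13, Mcts2, Blcap and Nnat, the factor Hnf4a, and last Nespas and Gnas.

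Chromosome 2 was thinly listed for its length. Its first region lay at 3193211 to 3193342 and its last at 181310814 to 181310980, a span of 178.1 Mb that only chromosome 1 exceeded among the autosomes. The 494 regions came to 2.77 per Mb of that span (95% exact Poisson interval 2.53 to 3.03, which covers counting error only). The other 18 autosomes together held 8404 regions at 3.78 per Mb (3.70 to 3.86). The ratio of the 2 densities was 0.73 (0.67 to 0.80, from the counting error of chromosome 2). Of the autosomes 15 were denser and 3 were sparser. The sparser ones were chromosomes 14 (2.30 per Mb, 2.04 to 2.59) and 13 (2.75, 2.46 to 3.07), and chromosome 18 between them. The intervals of these 3 chromosomes, and on the denser side those of chromosomes 3 (3.03, 2.76 to 3.31) and 8 (3.19, 2.88 to 3.51), overlap the interval of chromosome 2, so its place among these neighbours is not resolved by the counts. All these intervals treat regions as independent. They are too narrow for regions spread as unevenly as described below, with a variance of 5 Mb window counts 3.86 times their mean. Its place against further autosomes is thus not settled by them either. Chromosome 1, the longest, held 1030 regions at 5.32 per Mb (5.00 to 5.66), and X held 107 at 0.667 per Mb (0.547 to 0.806). Regions are not replicates, and these densities were not tested against each other.

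**Figure D1:**
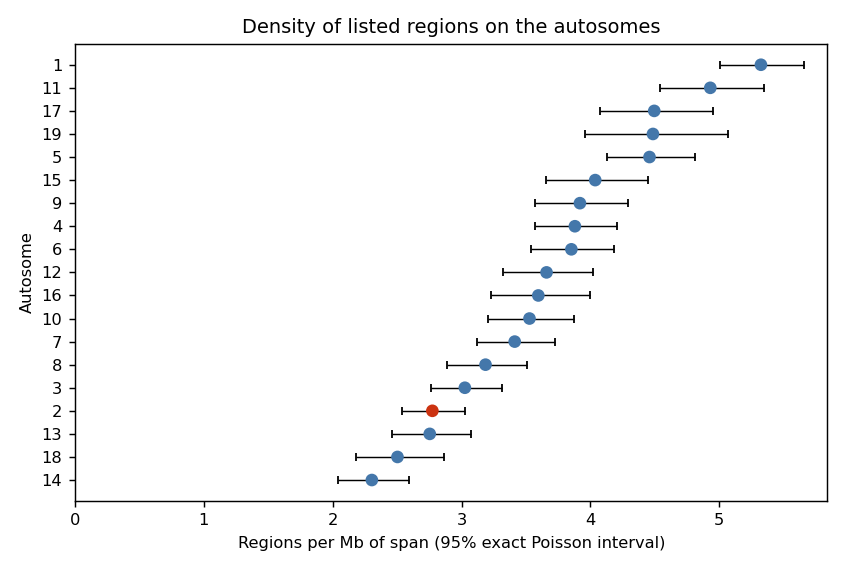
Density of listed regions on each of the 19 autosomes (points, regions per Mb between the first and the last region) with 95% exact Poisson intervals (bars), ordered from the sparsest at the bottom. Chromosome 2, in red, has 3 autosomes below it at 2.77 per Mb, with an interval that overlaps those of chromosomes 3, 8, 13, 14 and 18.

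The regions were unevenly spread along the chromosome. Cut into windows of 5 Mb from position 0, the chromosome gave 36 full windows and a last partial one. The full windows held between 3 and 32 regions, with a median of 11.5 (quartiles 8.75 and 16.5) and a mean of 13.4 ± 7.20 (SD over the 36 windows, which is a spread along the chromosome and not an error). None of them was empty. The variance of the counts was 3.86 times their mean, where independent placement at 1 constant density would give a value near 1. Such unevenness was not particular to chromosome 2, since this value was higher on 11 other autosomes and lower on 7. The SD as a share of the mean, 53.7%, was higher on 6 and lower on 12. The 95% exact Poisson interval lay above the mean for 7 windows, below it for 4 and held it for 25. On the other autosomes the median over 448 full windows was 16 (quartiles 11 and 24), and 25 of the 36 windows of chromosome 2 lay under that median. A count of 20 or more was found in 19.4% of the windows of chromosome 2 and in 36.8% of the others, and a count under 5 in 8.33% and 3.57%.

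**Figure D2:**
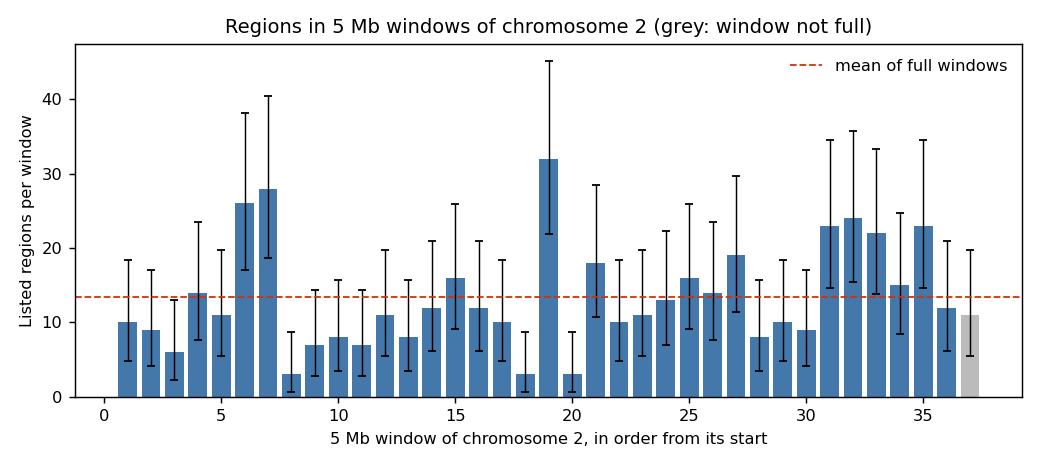
Number of listed regions (bars) in each 5 Mb window of chromosome 2 in order from its start, with 95% exact Poisson intervals (lines), the mean of the full windows (dashed) and the partial last window in grey. The counts run from 3 to 32, with high bars at windows 6 and 7, at window 19 and at windows 31, 32, 33 and 35.

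The 7 windows with 20 or more regions lay in 3 parts of the chromosome, which were picked out after their counts had been seen, so the intervals given for them do not allow for that choice. The first part ran from 25 to 35 Mb, where the 2 windows held 26 and 28 regions, 5.40 per Mb (4.06 to 7.05). The second was the single window from 90 to 95 Mb with 32 regions, the fullest of the chromosome, at 6.40 per Mb (4.38 to 9.03). The third ran from 150 to 175 Mb, where 5 windows held 23, 24, 22, 15 and 23 regions, 107 in all and 4.28 per Mb (3.51 to 5.17). Together these 40 Mb, 22.5% of the span, carried 193 regions, or 39.1% of those on the chromosome. The other 138.1 Mb carried 301 regions at 2.18 per Mb. They were not thin throughout. The last 3.36 Mb of the span, cut by a window border, held 23 regions at 6.85 per Mb (4.35 to 10.3). This part was bordered by the regions themselves, from the first after an empty stretch of 3.30 Mb to the last listed. That choice raises its density, and its interval does not allow for it.

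Between the first and the second of these parts lay a long thin one. From 35 to 70 Mb the 7 windows held 3, 7, 8, 7, 11, 8 and 12 regions, 56 in all and 1.60 per Mb (1.21 to 2.08). The first part was thus bordered by an abrupt fall, from 28 regions between 30 and 35 Mb to 3 between 35 and 40 Mb. A second thin part ran from 135 to 150 Mb, with 8, 10 and 9 regions and 1.80 per Mb (1.19 to 2.62), just before the third of the dense parts. The window from 10 to 15 Mb held 6 regions. Over the chromosome as a whole, the counts of neighbouring full windows showed little relation to each other (Pearson r = -0.01, Spearman rho = 0.10 over 35 pairs of neighbours, a description, since each window enters 2 pairs).

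The sharpest contrast was around the fullest window. It held 32 regions and both windows beside it held 3, so that the count changed by 29 at each border. Among 465 steps between neighbouring full windows on the autosomes 6 were larger than these 2, the largest being a step of 46 on chromosome 1 and another of 46 on chromosome 17. By single Mb, the counts from 90 to 95 Mb were 5, 4, 8, 10 and 5. On the near side, the 5 Mb before them held 1, 0, 0, 1 and 1. On the far side, the counts were 0, 3, 0, 0 and 0. The 3 regions from 85 to 90 Mb lay at 85519714 to 85519820 (107 bp), 88469363 to 88469507 (145 bp) and 89319123 to 89319316 (194 bp). Those from 95 to 100 Mb lay close to each other, at 96005315 to 96005408 (94 bp), 96422152 to 96422223 (72 bp) and 96552876 to 96553183 (308 bp). The third window with 3 regions, from 35 to 40 Mb, had them at 36548267 to 36548422 (156 bp), 36626056 to 36626262 (207 bp) and 38794529 to 38794611 (83 bp).

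Long stretches without a region took up more of chromosome 2 than of any other autosome at the limit of 2 Mb. Of the 73 autosomal stretches over 2 Mb, 13 lay on chromosome 2 (17.8%, on 7.41% of the autosomal span), where they added up to 34.3 Mb or 19.3% of its span. Chromosome 7 followed with 7 stretches and 17.6%, chromosome 12 with 7 and 17.2%, and chromosome 14, which is sparser than chromosome 2, with 6 and 15.7%. Chromosomes 13 and 18, also sparser, had 2 stretches each and 5.33% and 5.59%. The leading place was not kept at other limits, since 1 autosome had a higher share with a limit of 1 Mb and 4 had a higher share with a limit of 3 Mb. It was not tested, and the next shorter stretch of chromosome 2 was 1.83 Mb, against 2.02 Mb for the shortest one counted.

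The longest stretch, 3.61 Mb, ran from 96553184 to 100167688, and it closed the far side of the fullest window's surroundings. Another of 2.95 Mb, from 85519821 to 88469362, closed the near side. The 8.08 Mb between them held 37 regions, 4.58 per Mb (3.22 to 6.31). The second longest, 3.30 Mb, ran from 174653393 to 177955727 near the far end, beyond which 23 regions filled the last 3.36 Mb at 6.85 per Mb (4.35 to 10.3). Both of these densities are for parts that begin and end at a listed region beside a stretch or at the last region, which raises them. The third longest, 3.26 Mb, ran from 137843703 to 141105706. Of the 13 stretches, 10 lay in the nearer 50% of the span and 3 beyond it. The 3 beyond it were the longest and the only ones over 3 Mb, so at that limit all would lie in the farther part. This split was not set beside that of other autosomes.

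Some of the shorter stretches lay near each other, a grouping made with their positions in view and not set against other autosomes. Stretches of 2.67 Mb (7204827 to 9873277), 2.54 Mb (12008552 to 14551639) and 2.58 Mb (14753506 to 17334565) followed each other, so that the 10.1 Mb from the first to the last base of this group held 8 regions of 67 to 428 bp. Of these, 6 lay in the 2.14 Mb between the first and the second stretch, at 2.81 per Mb (1.03 to 6.12). Another 3 followed each other between 34524062 and 41059533, with lengths of 2.02, 2.17 and 2.26 Mb, and these 6.54 Mb held 3 regions. The others were 2.22 Mb from 44977979 to 47199281, 2.38 Mb from 54277105 to 56662086 and 2.31 Mb from 63542006 to 65854145. The 26 widths beside the 13 stretches (a region between 2 stretches counts on both sides) ran from 43 to 360 bp with a median of 138.5 bp. With all stretches over 2 Mb left out on every chromosome, a choice made after the stretches had been seen, chromosome 2 had 3.43 regions per Mb (3.14 to 3.75) and the other autosomes 4.09 (4.00 to 4.18), a ratio of 0.84 in place of 0.73. Leaving out bases without a region raises any density by construction. The rise is larger where stretches take more of the span, 19.3% on chromosome 2 against 7.64% on the others. The change in the ratio is therefore no separate result. The build's assembly gaps and the share of unplaceable reads in these stretches were not analysed here.

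**Figure D3:**
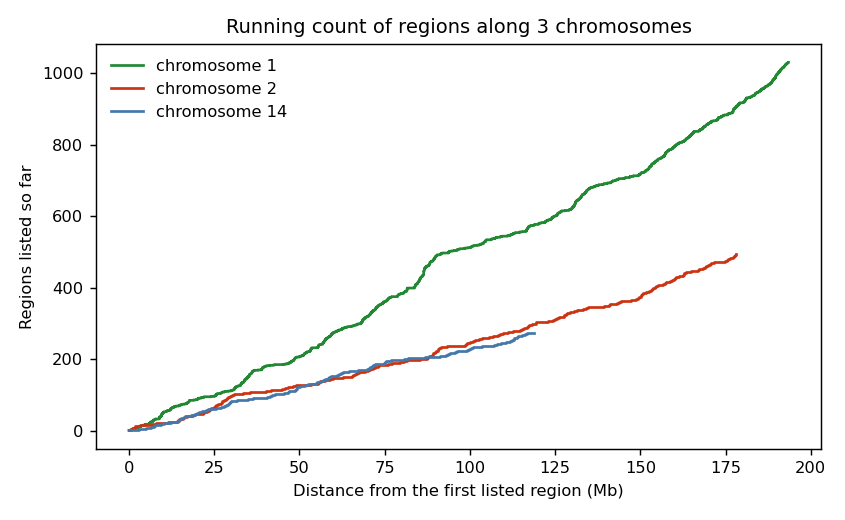
Running count of listed regions against the distance from the first listed region (Mb) on chromosomes 1, 2 and 14. The curve for chromosome 2 ends at 494 regions, against 1030 for chromosome 1 and 274 for chromosome 14, and its flat steps are the stretches without a region.

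More regions were listed towards the far end. Of 3 equal parts of the span, each 59.4 Mb long, the first held 145 regions (29.4%, 95% exact Clopper-Pearson interval 25.4 to 33.6), the second 154 (31.2%, 27.1 to 35.5) and the last 195 (39.5%, 35.1 to 43.9). An even spread would put 33.3% in each, a value that the interval of the last part leaves out. That interval treats regions as independent and is too narrow for window counts with a variance of 3.86 times their mean. An even spread was not tested. The densities were 2.44 per Mb (2.06 to 2.87), 2.59 (2.20 to 3.04) and 3.28 (2.84 to 3.78), and the intervals of the first and last parts overlap narrowly. The other autosomes, pooled, gave 29.7% (28.7 to 30.7), 31.8% (30.8 to 32.8) and 38.5% (37.5 to 39.5), so that chromosome 2 lay within counting error of them. Chromosome 14 had 27.7% (22.5 to 33.4) in its last part and chromosome 1 had 40.1% (37.1 to 43.2).

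Neighbouring regions were usually more than 100 kb apart. The median distance from the end of a region to the start of the next was 197949 bp (95% interval from order statistics 168263 to 224168, 493 distances), with quartiles of 81844 and 436891 bp. It was 99788 bp on chromosome 1 (91744 to 110253), 121525 bp on chromosome 11 (108492 to 135910), 263024 bp on chromosome 14 (216587 to 313790) and 141550 bp over the other autosomes (137395 to 145739). Of the other 18 autosomes, 3 had a longer median. The median was 0.55 times the mean distance of 361099 bp on chromosome 2 and 0.53 times it over the other autosomes. In bins of 1 Mb, 30 of 179 bins (16.8%) held no region, 35 held 1, and 20 bins (11.2%) held 6 or more. The fullest were 153 to 154 Mb with 11 regions, 93 to 94 Mb with 10 and 28 to 29 Mb with 9.

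**Figure D4:**
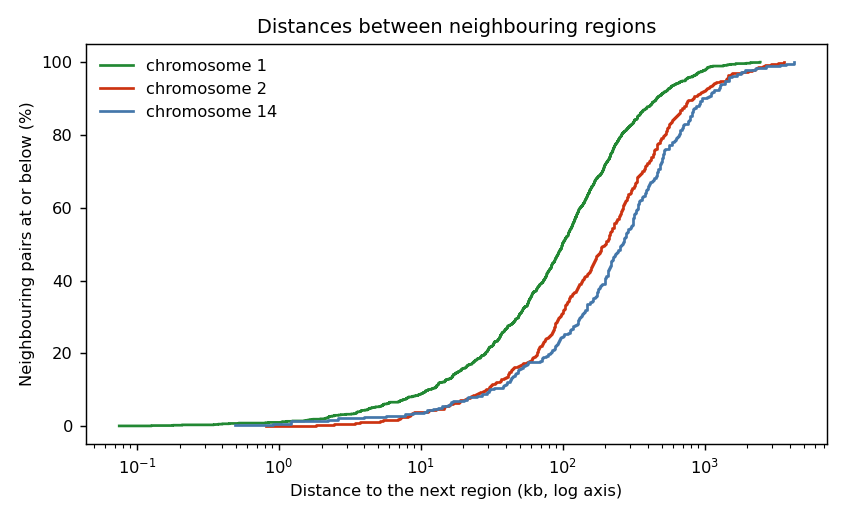
Share of neighbouring pairs (%) whose distance is at or below the value on the horizontal log axis (kb), for chromosomes 1, 2 and 14. The curve for chromosome 2 lies between the other two over most of its course and crosses 50% at a median of 197949 bp.

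Tight groups of regions were few. A single pair lay under 1 kb apart, with 808 bp between a region of 340 bp at 162033383 to 162033722 and one of 56 bp at 162034531 to 162034586. Distances under 10 kb separated 20 pairs, 4.06% of all neighbouring pairs, against 5.95% on the other autosomes, 8.84% on chromosome 1 and 10.6% on chromosome 11. The share was higher than on chromosome 2 on 13 autosomes and lower on 5. Among those 5 were the sparser chromosomes 13 (2.49%), 14 (3.66%) and 18 (3.27%). Of the 20 pairs, 10 began in the last of the 3 equal parts. The 40 regions in such pairs had a median width of 194.5 bp, and the other 454 had one of 159 bp. No interval was computed for these medians, and their difference was not tested. The next closest pairs were 1817 bp apart (153286764 to 153286820 and 153288638 to 153288880) and 2463 bp apart (163392198 to 163392645 and 163395109 to 163395314).

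The densest 100 kb lay in the fullest bin of 1 Mb. Its 5 regions ran from 153286764 to 153370739 and had widths of 57, 243, 561, 133 and 222 bp in order, with 1817, 18603, 3711 and 58629 bp between them. The 561 bp member, at 153307484 to 153308044, was also among the 10 widest of the chromosome. Next came 4 regions of 75 to 158 bp between 26752921 and 26836996, and 4 regions of 135 to 273 bp between 28557193 and 28643023. Both of these lie in the dense part from 25 to 35 Mb.

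Widths on chromosome 2 were close to those elsewhere. The median was 160.5 bp (95% interval from order statistics 147 to 172), and the quartiles were 115 and 238 bp. The narrowest region spanned 41 bp and the widest 636 bp. The median on the other autosomes was 164 bp (161 to 167). Regions under 100 bp numbered 93 (18.8%, exact Clopper-Pearson interval 15.5 to 22.6), and they made up 18.8% of the others as well. Regions of 500 bp or more numbered 16 (3.24%, 1.86 to 5.21), against 3.57% (3.18 to 3.99) of the others. The regions of chromosome 2 covered 95960 bp, or 539 bp per Mb of span, against 752 bp per Mb on the other autosomes. This ratio of 0.72 is close to that of the region counts.

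The widest regions were scattered over the chromosome. The widest, 636 bp, lay at 5017489 to 5018124, 6906 bp before its next neighbour. Those of 622 bp (158438587 to 158439208), 598 bp (103475862 to 103476459) and 597 bp (172149930 to 172150526) followed, and then one of 589 bp (137733455 to 137734043), which lay 109299 bp before the last region ahead of the third longest empty stretch. The fullest window held one of 580 bp (92081258 to 92081837). The others among the 10 widest were those of 561 bp (153307484 to 153308044), 560 bp (49577016 to 49577575), 543 bp (30062421 to 30062963) and 538 bp (173635948 to 173636485). Their windows held from 8 to 32 regions. The widest region of chromosome 2 was narrower than the widest of 16 other autosomes. The narrowest were 41 bp at 166994027 to 166994067, and 42 bp at 22951843 to 22951884 and at 110820227 to 110820268.

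Width showed no trend with the number of regions in a window. Over the 26 windows with 10 or more regions, the median width ran from 86 to 231 bp, and its relation to the count was flat (Pearson r = -0.01, Spearman rho = 0.01, a description over windows of 1 list). The partial last window is among the 26, with a count of 11 that its short length limits. The order-statistic interval of each of the 26 medians held the chromosome's 160.5 bp. The lowest median was that of the window from 20 to 25 Mb, 86 bp (55 to 209), where 7 of 11 regions were under 100 bp (63.6%, exact Clopper-Pearson interval 30.8 to 89.1). The window from 105 to 110 Mb followed with 118 bp (54 to 221), and 5 of its 10 regions were under 100 bp. The highest medians were 231 bp (144 to 284) from 70 to 75 Mb and 230.5 bp (122 to 342) from 120 to 125 Mb, each over 16 regions. The window with most regions, from 90 to 95 Mb, had a median of 156.5 bp (122 to 292). Across the 3 equal parts the medians were 155 bp (132 to 170), 159.5 bp (138 to 190) and 166 bp (145 to 179).

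**Figure D5:**
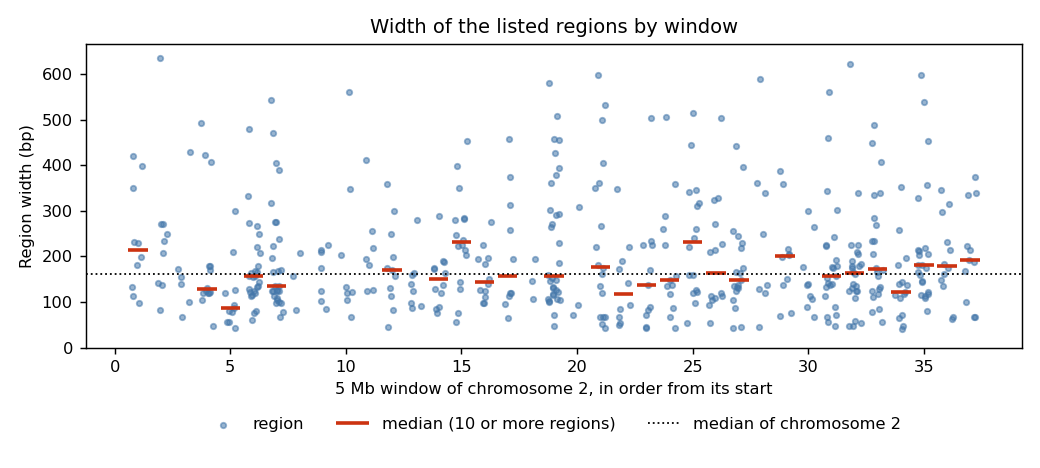
Width (bp) of each listed region of chromosome 2 (points, spread sideways at random within their window) by 5 Mb window, with the median of windows of 10 or more regions (red bars) and the median of the chromosome, 160.5 bp (dotted). Window medians lie between 86 and 231 bp, and the windows with most points do not stand higher or lower than the rest.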

How the data were processed

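The series has 6 ChIRP libraries, sequenced single-end at 50 bp per the labels, and the values come from 1 list of regions. Per the submitters' processing notes, the genome build is mm9. The authors deposited a placeholder of 0 as the score of every region, in both value columns. The aligner, the peak caller, its threshold, the use of the input, odd and even libraries and the meaning of "unique" in the list's name are not given in the sources used here. Depth is unknown, and the vector clone was not analysed here.

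Starts were converted to count from 1, and width is end minus start as deposited. Density is the number of regions per Mb between the outermost regions of a chromosome, its span, which keeps assembly gaps. Windows of 5 Mb start at position 0, so the first holds the bases before the first region, and full windows end at or before the last region. Intervals are 95% exact Poisson for counts, exact Clopper-Pearson for shares and binomial order statistics for medians. They treat regions as independent and describe counting error only. With 1 list and no replicates, no test was run. Functions were tested on simulated lists, in Python 3.11.15 with numpy 2.4.6, pandas 2.3.3 and scipy 1.17.1.

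Named regions are the first and last, the 10 widest and 3 narrowest, the 5 fullest and 5 emptiest full windows, stretches over 2 Mb, pairs under 1 kb apart and the 3 densest stretches of 100 kb. Any other region or part was picked with its values in view. The chromosome, the gene list and these rules were chosen with earlier results of these data known. The planned distances to genes need an mm9 annotation and were not computed. One gene of the planned list is not reported here.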

Additional observations from a re-analysis of the deposited data

How the results depend on the processing

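Of 72 recomputed values of 18 results, 46 were called the same and 26 moved. A value was the same if it stayed within counting error or, for results without an interval, within 1.5 times the value reported. Counts of autosomes with a higher share had to be unchanged. Counts in windows of another length, and stretches at another limit, differ by construction, so the tally is no measure of robustness. The density of chromosome 2 relative to the other autosomes kept its direction in all 6 alternatives run for it (0.71 to 0.74). Some of these could change little on chromosome 2. Leaving out 100 kb windows with 5 or more regions kept all its 494 regions, and merging neighbours under 1 kb apart kept 493. Keeping the 242 regions at or above 164 bp, the median of the nuclear list, gave windows of 1 to 15 regions with a median of 6 and a variance of 2.46 times the mean. It also gave a median distance of 363536 bp, 0 pairs under 1 kb, 7 pairs under 10 kb and 20 stretches over 2 Mb on 40.7% of the span, with 2 autosomes above that share. Fewer regions were counted there, so that distances lengthen by construction. Keeping the 401 regions of 100 bp or more brought the emptiest window to 1, the median distance to 230644 bp and the pairs under 1 kb to 0. Merging neighbours under 1 kb apart also left 0 such pairs, by construction. Windows of 10 Mb held at least 13 regions with a median of 27.5, and windows of 2 Mb held 0 to 18 with a median of 5. A limit of 1 Mb gave 39 stretches on 38.4% of the span, with 1 autosome above chromosome 2, and a limit of 3 Mb gave 3 stretches on 5.71%, with 4 autosomes above it. Outside the stretches over 3 Mb the density ratio was 0.75 in place of 0.84. The counts of autosomes with a higher share, and the ratio outside the stretches, were chosen after seeing the data. No paired analysis was possible because every group consists of a single library and the regions carry no values by library. The unknown read depth limits what can be said of sites under the caller's threshold.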
